A study of Arabidopsis thaliana with 4 samples.

Results

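The transcripts described here are those of the mitochondrial genome of Arabidopsis thaliana, taken as every gene probe whose locus identifier begins with ATMG followed by a locus number. There were 74 such probes for 67 loci, among 34127 measured features, and the brightest probe over the 4 arrays gave the value of each locus. Of the 67 loci, 53 were bright enough to be tested, among 22438 tested features. Loci are named by identifier only, because the array files and the gene table used here pair none of the 67 identifiers with a gene name or role.

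Plants of 2 transgenic lines in the Col-0 background were compared with wild type Col-0 plants. One line expressed a truncated form of VuDREB2A, a cowpea transcription factor of the DREB2 class, from the 35S promoter, and the other expressed the full-length form from the same promoter. All plants, wild type included, were whole 21-day-old seedlings from diluted MS agar with 1% sucrose, under 12 h of light a day at 25 °C and without treatment. RNA of each line was paired with wild type RNA on 2 two-colour arrays with the dyes swapped, so that replicate 1 carried the line in Cy3 and replicate 2 carried it in Cy5. The labels name 1 line per construct, so an effect of the construct and an effect of the line's own insertion cannot be told apart. The design counts 2 wild type replicates, so both lines may have been set against the same wild type RNA.

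The plant mitochondrial genome encodes a small part of the organelle: core subunits of respiratory complexes I, III and IV and of ATP synthase, proteins that mature cytochrome c, some ribosomal proteins, ribosomal and transfer RNAs, a splicing maturase and many open reading frames of unknown function. Its genes are transcribed by phage-type RNA polymerases encoded in the nucleus, and the transcripts are spliced, edited and trimmed by nuclear-encoded proteins, so that their levels depend on processing and decay as well as on transcription. The remaining respiratory subunits and nearly all proteins of mitochondrial gene expression are nuclear products. Copies of mitochondrial DNA also lie in the nuclear genome, the largest of them on chromosome 2.

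All 4 arrays were on 1 slide. No gene spot was saturated, between 20 and 50 gene spots per array were left out as outliers, none of them a mitochondrial spot, and the share of probes clearly above background ran from 65.6% to 72.5% over the channels. Among the 67 mitochondrial loci, 51 were well above background in every channel of every array and 8 in no channel of any array. Of the 53 tested, 51 passed the brightness filter through wild type, in that channel on each of the 4 arrays, and ATMG00030 and ATMG01040 passed through a line channel only. Precision is limited by having 2 arrays for a line, and errors are SD over 2 arrays unless named as the standard error of the fit.

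Many mitochondrial transcripts were higher in both lines than in wild type, and none was called lower. In the truncated line 18 of the 53 tested loci rose, by 1.21-fold to 1.66-fold, and in the full-length line 26 rose, by 1.25-fold to 2.46-fold (limma, Benjamini-Hochberg adjusted p below 0.05 over all tested features). Over all tested features 7.09% were called higher in the truncated line and 9.41% in the full-length line, while 6.15% and 6.14% were called lower. Without adjustment, 34 mitochondrial loci in the truncated line and 38 in the full-length line had p below 0.05 in the higher direction, and 0 in the lower direction in either line. There were 17 loci called higher in both lines, 9 in the full-length line without a call in the truncated line, 1 (ATMG00830) the other way round, and 26 tested loci with a call in neither. The matching shares of all features were not counted, so this overlap has no background beside it. The lines may also share wild type RNA, so their calls are not independent to that extent. These calls depended on how arrays were scaled within themselves: with median centring in place of loess no mitochondrial locus was called, and over all tested features only 25 and 8 were called higher in the truncated and full-length lines. Under that scaling 3 and 10 mitochondrial loci had an unadjusted p below 0.05, all higher. The share of all features below 0.05 without adjustment was not counted, so unadjusted counts here and below have no background beside them. With no filter on dim probes 5 and 15 loci were called higher in the truncated and full-length line (1.04% and 2.07% of all features), and with outlier-marked spots kept 19 and 16 (6.2% and 2.52%). Without truncated replicate 2 the truncated count was 10 (3.49% of all features), and without full-length replicate 2 the full-length count was 17 (4.93%).

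The direction did not need the brightness filter. Of all 67 loci, 45 were above 0 on both arrays of the truncated line and 54 on both arrays of the full-length line, against 29.1% and 30% of all measured features. Below 0 on both arrays were 4 loci in the truncated line (ATMG00140, ATMG00880, ATMG01060 and ATMG01230) and 3 in the full-length line (ATMG00110, ATMG00850 and ATMG01230), against 27.9% and 27.4% of all measured features. The median log2 ratio over the 67 loci was 0.20 and 0.19 on the 2 truncated arrays and 0.29 and 0.24 on the 2 full-length arrays, whereas the median over all measured features lay between 0.00 and 0.01 on each. The median of the means over the arrays was 0.16 in the truncated and 0.24 in the full-length line; it was 0.23 and 0.44 with the scanner software's own log ratios, and 0.16 in both with outlier-marked spots kept. Above 0 on both arrays under median centring were 31 loci (truncated) and 40 (full-length), against 12.8% and 21.9% of all measured features. Below 0 on both were 0 loci in either line, against 12.4% and 19.7%. The set's median was then 0.16 and 0.27, against 0.005 and 0.07 over all measured features. The direction of the set was thus the same as with loess. In bulk RNA of whole plants, a different share of cells or organs and a different amount of mitochondrial RNA per cell cannot be told apart.

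**Figure D1:**
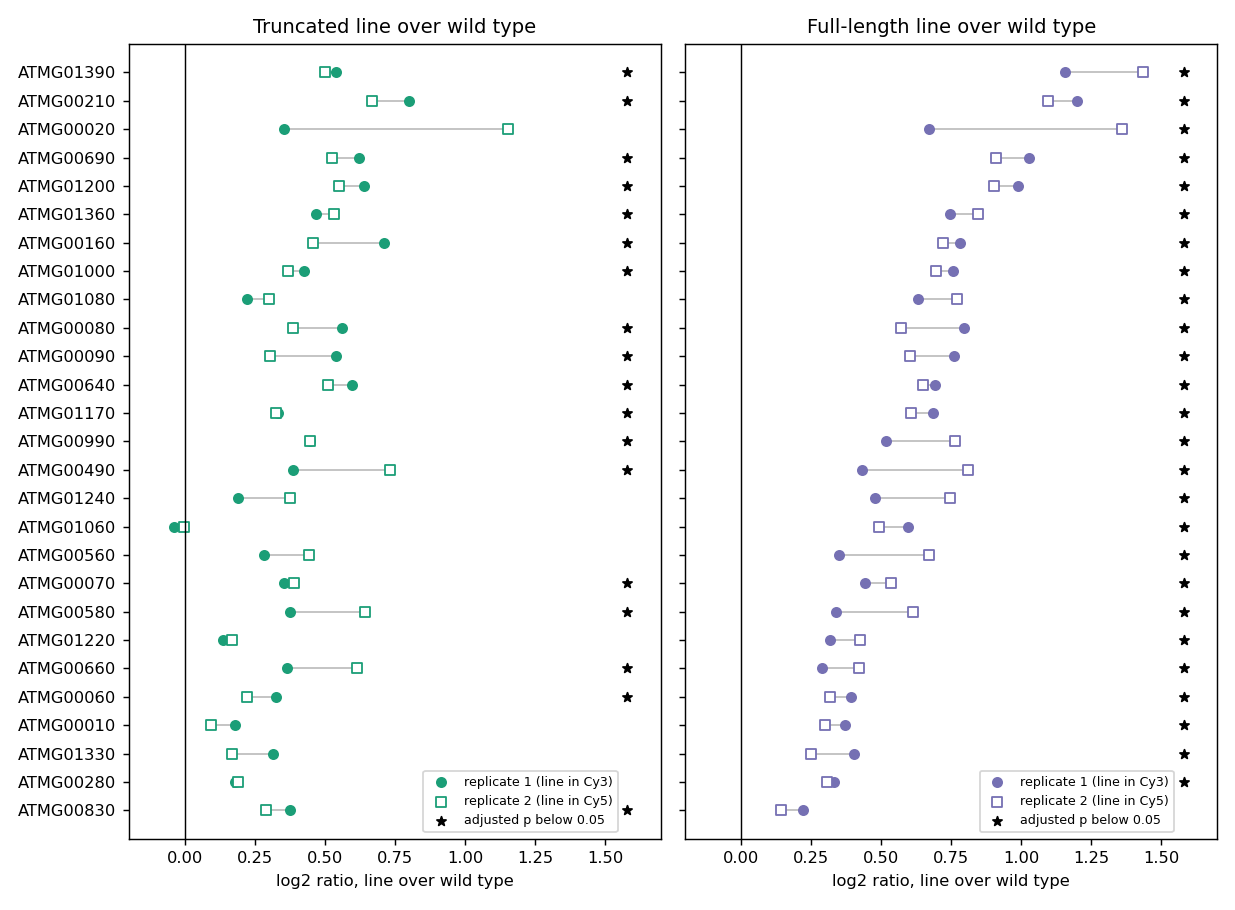
Log2 ratio of line over wild type on each array (x axis) for the 27 mitochondrial loci called in at least 1 line (y axis), with the truncated line on the left and the full-length line on the right. Filled circles are replicate 1 (line in Cy3), open squares replicate 2 (line in Cy5), grey bars join the 2 arrays of a line, and stars mark an adjusted p below 0.05. All full-length values lie above 0, and ATMG01060 is the locus with truncated values just below 0.

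The locus with the highest ratio in the full-length line was ATMG01390. Its log2 ratios were 0.54 and 0.50 on the truncated arrays and 1.16 and 1.43 on the full-length arrays. In processed intensities, the truncated line gave 87410 and 74900 against 59440 and 53450 in wild type, and the full-length line gave 124100 and 139200 against 54420 and 54490 in wild type. Both lines were thus brighter than wild type on each array, and both full-length ratios lay above both truncated ones. Of all measured features, 20.2% had that order of the lines. The means were 0.52 ± 0.03 in the truncated line (1.43-fold, adjusted p = 0.0219) and 1.30 ± 0.20 in the full-length line (2.46-fold, adjusted p = 0.00318).

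ATMG00210 had the highest ratio among the loci called in the truncated line and the second highest in the full-length line. Its log2 ratios were 0.80 and 0.67 in the truncated line, and 1.20 and 1.10 in the full-length line. The intensities were 4808 and 4255 in the truncated line against 2815 and 2694 in wild type, and 6315 and 6519 in the full-length line against 2761 and 3096 in wild type. The 2 arrays of each line lay close together, and both full-length ratios lay above both truncated ones. That order was seen in 20.2% of all measured features, and picking the locus for a high full-length ratio favours it. The difference between the lines did not pass the test (limma, adjusted p = 0.092). The mean was 0.73 ± 0.09 in the truncated line (1.66-fold, adjusted p = 0.0064) and 1.15 ± 0.07 in the full-length line (2.21-fold, adjusted p = 0.003).

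The third locus called with at least a 2-fold rise in the full-length line was ATMG00020, and its arrays differed widely by dye. The truncated line had log2 ratios of 0.36 and 1.15, and the full-length line 0.67 and 1.36, so in both lines the array with the line in Cy5 was the higher one. The adjusted p was 0.103 in the truncated line (mean 0.75 ± 0.56) and 0.048 in the full-length line (mean 1.02 ± 0.49). That call was lost without full-length replicate 2 (log2 ratio 0.67, adjusted p = 0.0514), with no filter on dim probes (adjusted p = 0.119) and with outlier-marked spots kept (adjusted p = 0.0562). The locus has 3 probes, and they gave different sizes: a second probe had means of 0.63 in the truncated and 0.99 in the full-length line, and the remaining one 0.15 and 0.13.

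ATMG00690, ATMG01200 and ATMG01360 followed in the full-length line and were also among the 10 highest called loci of the truncated line. ATMG00690 had log2 ratios of 0.62 and 0.53 in the truncated line and 1.03 and 0.91 in the full-length line (adjusted p = 0.0106 and 0.00338). ATMG01200 had 0.64 and 0.55 in the truncated line and 0.99 and 0.90 in the full-length line (adjusted p = 0.00879 and 0.00321). ATMG01360 had 0.47 and 0.53 in the truncated line and 0.75 and 0.84 in the full-length line (adjusted p = 0.0124 and 0.00416). At each of these 3 loci, both full-length arrays were above both truncated arrays, an order that 20.2% of all measured features had. These loci, like ATMG01390 and ATMG00210, were picked for high full-length ratios, which favours that order. The difference between the lines did not pass the test at these 3 (adjusted p = 0.0962, 0.109 and 0.147). With replicate number, which is dye orientation, as a block in the fit, all 3 differences passed (adjusted p = 0.00155, 0.0023 and 0.00449). That block called 21.2% of all tested features lower and 17.9% higher in the truncated line.

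The other full-length loci named by rank were ATMG00160, ATMG01000, ATMG01080 and ATMG00080, with mean log2 ratios of 0.75, 0.73, 0.70 and 0.68. In the truncated line the same 4 had means of 0.59, 0.40, 0.26 and 0.47, and ATMG01080 was the one without a call there (adjusted p = 0.0612). The truncated line's own list added ATMG00490 (log2 ratios 0.39 and 0.73), ATMG00640 (0.60 and 0.51), ATMG00580 (0.37 and 0.64) and ATMG00660 (0.36 and 0.61). The call of ATMG00640 was lost only under median centring among the alternatives run. The other 3 were higher on the array with the line in Cy5, and without truncated replicate 2 they lost their calls (adjusted p = 0.122, 0.111 and 0.0986). With no filter on dim probes the truncated calls of these 3 and of ATMG00160 and ATMG01390 were lost too, at adjusted p from 0.0563 to 0.125. ATMG00830, named after its values were seen because it was called in the truncated line and not in the full-length line, had log2 ratios of 0.38 and 0.29 in the truncated line and 0.22 and 0.14 in the full-length line. The lines did not differ at that locus by the test of the difference (0.15, adjusted p = 0.406).

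The 26 tested loci without a call in either line had smaller ratios. Their mean log2 ratio had a median of 0.10 in the truncated line, with a range from -0.04 to 0.45, and of 0.16 in the full-length line, with a range from -0.08 to 0.46. ATMG00630 and ATMG00650 were the highest of them in the full-length line, and these 2 were named after their values were seen. ATMG00630 had log2 ratios of 0.26 and 0.58 in the truncated line and 0.31 and 0.61 in the full-length line (adjusted p = 0.0703 and 0.0518). The 14 loci too dim to be tested had median log2 ratios of 0.02 (truncated) and 0.03 (full-length), near the median of all features. At such low signal the offset of 50 in the background correction draws ratios toward 0, so a change there could be missed.

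The ratios differed with probe brightness. Among tested loci with a mean log2 intensity below 8, 0 of 21 were called higher in the truncated line and 2 of 21 in the full-length line, and the class medians were 0.10 and 0.14. At 8 to 10 the counts were 3 and 5 of 10, and at 10 to 12 they were 9 and 10 of 13. At 12 or above, 6 and 9 of 9 were called, with class medians of 0.52 and 0.95. Over all features the called share across these classes lay between 4.27% and 8.87% in the truncated line and between 6.28% and 12.3% in the full-length line, and every class median was between 0.00 and 0.02. The background correction added an offset of 50 to both channels, which by construction draws the ratios of dim probes toward 0. Smaller ratios at dim loci therefore need not be smaller changes. The share that brightness has in the size of the mitochondrial ratios was not tested.

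**Figure D2:**
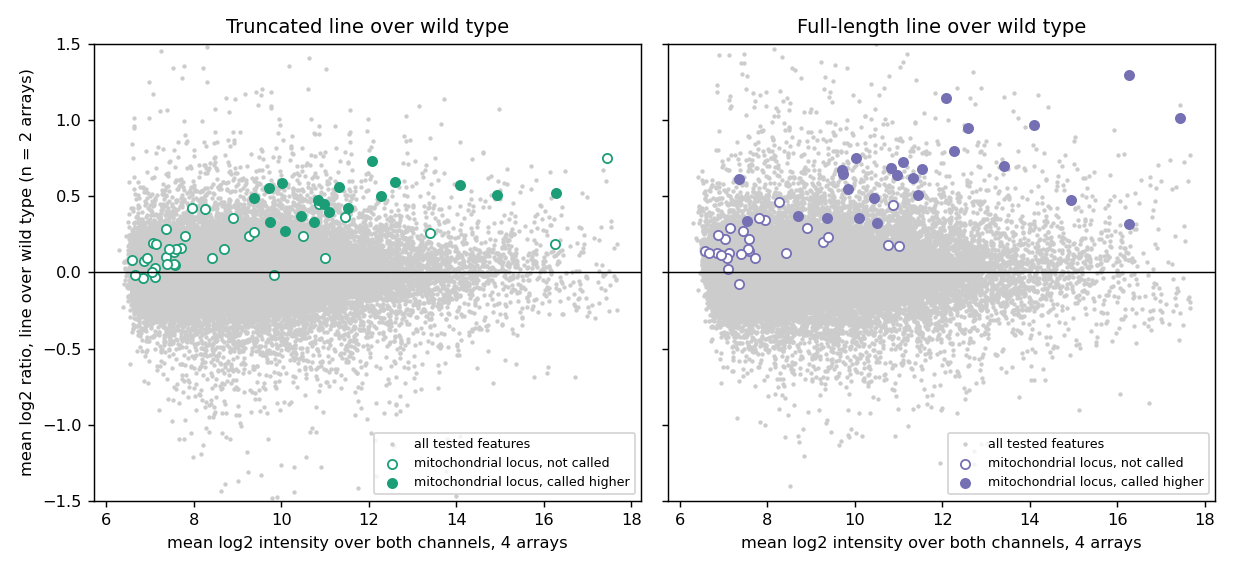
Mean log2 ratio of line over wild type (y axis, n = 2 arrays) against mean log2 intensity over both channels of the 4 arrays (x axis), with the truncated line on the left and the full-length line on the right. Grey points are all tested features (40 in the truncated and 26 in the full-length panel lie beyond 1.5 and are not drawn), open circles are tested mitochondrial loci without a call and filled circles those called higher. The 9 loci at 12 or above all lie above 0, with a median of 0.52 in the truncated and 0.95 in the full-length line.

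The 6 loci with more than 1 probe showed how far probes of a locus differed. The 2 probes of ATMG00060 were nearly equal, with 0.27 and 0.28 in the truncated line and 0.35 and 0.34 in the full-length line, and those of ATMG00090 gave 0.42 and 0.52 in the truncated line and 0.68 and 0.75 in the full-length line. At ATMG00690 the second probe was lower, with 0.33 in the truncated and 0.43 in the full-length line. At ATMG00580 the used probe gave 0.51 in the truncated and 0.48 in the full-length line, while the second probe gave 0.34 and 0.04. ATMG01040 was the locus with probes of opposite direction: the used probe had a mean of -0.02 in the truncated line and the dimmer one 0.13, and in the full-length line both were above 0 (0.13 and 0.09).

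Ratios differed with dye orientation in both directions. Of the 67 loci, 24 were higher on replicate 2 in both lines, 30 were higher on replicate 1 in both lines and 13 differed between the lines. Over all measured features these shares were 39.1% and 39.2%, against 35.8% and 44.8% of the mitochondrial loci. The median of the set was above 0 in each orientation of each line, as given above.

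The direct comparison of the lines asked whether the truncated form changed these transcripts to a different extent from the full-length form. The truncated line had the lower log2 ratio at 49 of the 67 loci, and the matching share of all features was not counted. The median difference, truncated minus full-length, was -0.10, against 0.00 over all measured features. Over the 53 tested loci that median was -0.11, and over the 14 too dim to be tested -0.004. With outlier-marked spots kept the median difference over the 67 loci was -0.022, against 0.01 over all measured features. In both dye orientations 40 loci were lower in the truncated line and 12 were higher, against 35.8% and 34.8% of all measured features. Both truncated arrays lay below both full-length arrays at 24 loci and above both at 4, against 20.2% and 19% of all measured features. By the test of the difference 2 loci were lower in the truncated line and 0 higher (limma, adjusted p below 0.05), against 2.15% and 0.972% of tested features, and at an unadjusted p below 0.05 there were 11 lower and 0 higher. With the replicate block the difference had 18 lower and 2 higher, and over all tested features 21.2% lower and 17.9% higher.

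The 2 called loci were ATMG01390 and ATMG01060. ATMG01390 was described above, and its difference was -0.78 (standard error 0.12, adjusted p = 0.041). ATMG01060 had log2 ratios of -0.04 and 0.00 in the truncated line, and 0.60 and 0.49 in the full-length line. In intensities it had 822.2 and 746 in the truncated line against 833.3 and 790.5 in wild type, and 1193 and 1236 in the full-length line against 806.9 and 849.2 in wild type. The truncated line was thus close to wild type, whereas the full-length line was brighter on both arrays (1.46-fold, adjusted p = 0.00848). The difference between the lines was -0.56 (standard error 0.08, adjusted p = 0.041). Both differences lost their call with the scanner software's own log ratios, at sizes of -0.75 for ATMG01390 and -0.60 for ATMG01060 (adjusted p = 0.0704 and 0.0691). They also lost it with no filter on dim probes, where the sizes are the same by construction (adjusted p = 0.138 and 0.146), and under median centring, at -0.55 and -0.45 (both adjusted p = 1). ATMG01060 also lost it without full-length replicate 1 (0.0909), truncated replicate 1 (0.0724) or truncated replicate 2 (0.0503), and with outlier-marked spots kept (0.105).

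**Figure D3:**
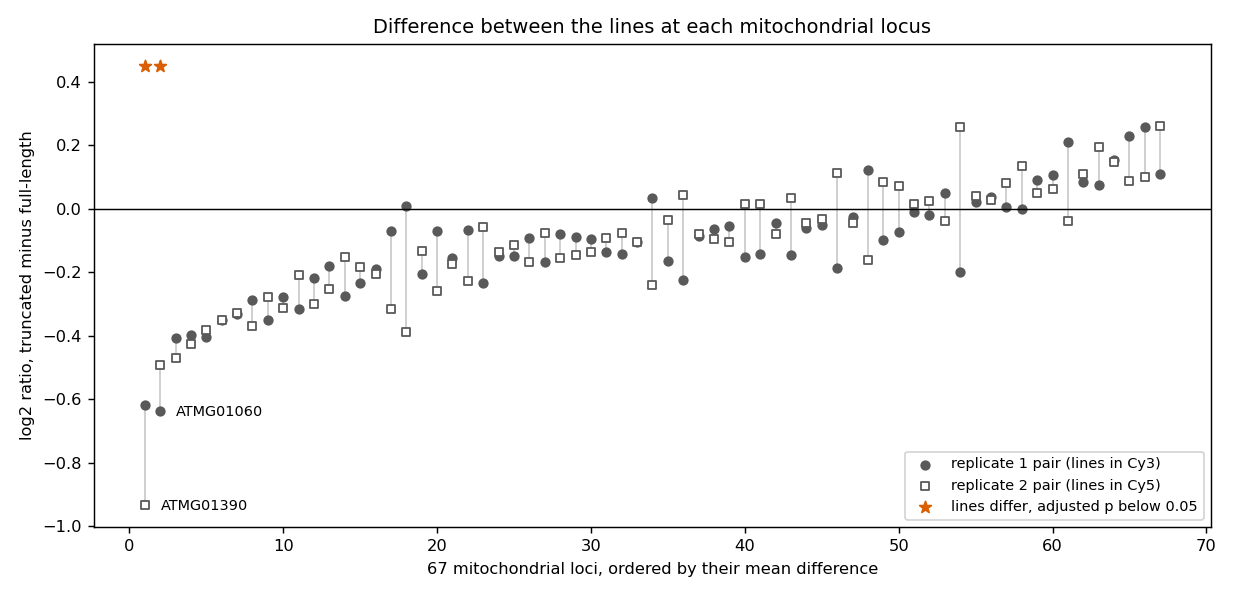
Difference in log2 ratio, truncated minus full-length line (y axis), at each of the 67 mitochondrial loci, ordered by mean difference (x axis). Filled circles set the 2 replicate 1 arrays against each other (lines in Cy3), open squares the 2 replicate 2 arrays (lines in Cy5), and stars mark an adjusted p below 0.05. At 40 loci both symbols lie below 0, with ATMG01390 (-0.78 on average) and ATMG01060 (-0.56) at the left end.

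Nuclear loci in the chromosome 2 copy of mitochondrial DNA were measured by their own probes, but because the sequences are close to those of the organelle, probes of either set may have bound transcripts of both, and their signals are uncertain to that extent. In the truncated line 26 of the 67 tested loci of this copy rose and 0 fell, and in the full-length line 32 rose and 0 fell. Over the 81 measured loci the median log2 ratio was 0.22 in the truncated line and 0.31 in the full-length line. The locus with the highest full-length ratio was AT2G07675, with 0.67 and 0.63 in the truncated line and 1.35 and 1.35 in the full-length line. It was also the only locus of the copy with a called difference between the lines (-0.70, adjusted p = 0.0224). The highest ratio of the copy in the truncated line was at AT2G07726, with 0.84 and 0.79 there and 0.72 and 0.82 in the full-length line.

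Transcripts of the chloroplast genome, the other organelle genome on the array, were also higher in both lines. Of 66 measured and tested loci, 36 rose in the truncated line and 32 in the full-length line, 0 fell in either, and 0 differed between the lines (at an unadjusted p below 0.05, 3 had a higher and 3 a lower ratio in the truncated line). The median log2 ratio was 0.36 in the truncated line and 0.42 in the full-length line. Under median centring it was 0.22 in the truncated line and 0.06 in the full-length line, where the median of all measured features was 0.07, so in the full-length line the set did not lie above all features under that scaling. ATCG00180 had log2 ratios of 0.88 and 0.83 in the truncated line and 0.79 and 0.89 in the full-length line (adjusted p = 0.00385 and 0.00377).

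The nuclear genes for respiratory subunits that were kept had medians near 0 in both lines. A further 36 listed loci had been dropped for want of a symbol or matching name, so the list is partial. Of 30 tested genes for complexes I to IV, cytochrome c and ATP synthase, 0 were called in the truncated line (5 had an unadjusted p below 0.05, all higher). In the full-length line 3 of the 30 rose and 0 fell, near the share of all tested features called higher there (9.41%). The list's median log2 ratio was 0.00 in the truncated line and 0.08 in the full-length line, and it turned negative under median centring, at -0.09 and -0.17. The 3 called genes were CYTC-2 and CYTC-1, which encode cytochrome c, and SDH7, a complex II subunit. CYTC-2 had log2 ratios of 0.31 and 0.14 in the truncated line and 0.62 and 0.47 in the full-length line (adjusted p = 0.112 and 0.0136).

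Nuclear genes that serve expression and upkeep of the mitochondrial genome, such as RNA helicases and organellar DNA polymerases, rose in part in the truncated line. From this list 4 loci had been dropped for want of a symbol or matching name, so it is partial too. In the truncated line 8 of 20 tested genes rose and 0 fell, against 7.09% of all tested features called higher. The median log2 ratio there was 0.16 over the 23 measured. In the full-length line 1 rose and 0 fell, against 9.41% of all tested features called higher, and the median was 0.03 (-0.04 under median centring). PMH1, a mitochondrial DEAD-box RNA helicase, had log2 ratios of 0.58 and 0.54 in the truncated line and 0.22 and 0.29 in the full-length line (adjusted p = 0.0089 and 0.0457). POLGAMMA2, an organellar DNA polymerase, had 0.45 and 0.48 in the truncated line and 0.12 and 0.03 in the full-length line (adjusted p = 0.0137 and 0.419). MSH1, which guards organelle genomes against rearrangement, had 0.35 and 0.54 in the truncated line and 0.11 and 0.19 in the full-length line (adjusted p = 0.0219 and 0.206). No gene of the list passed the test of the difference between the lines (0 of 20 by limma, with 6 higher in the truncated line at an unadjusted p below 0.05), so the lines were not shown to differ in it.

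Among 5 tested genes of the mitochondrial retrograde response, by which the nucleus answers organelle stress, 1 rose in the truncated line and 3 in the full-length line, and 0 fell. Over all tested features 7.09% and 9.41% were called higher in these lines. This list had lost 2 loci for want of a symbol or matching name. NDB2, an alternative NADH dehydrogenase of the inner membrane, had log2 ratios of 0.39 and 0.55 in the truncated line and 0.55 and 0.69 in the full-length line (adjusted p = 0.0208 and 0.00959). NAC13, a transcription factor of this response, had 0.18 and 0.16 in the truncated line and 0.48 and 0.50 in the full-length line (adjusted p = 0.11 and 0.00884).

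**Figure D4:**
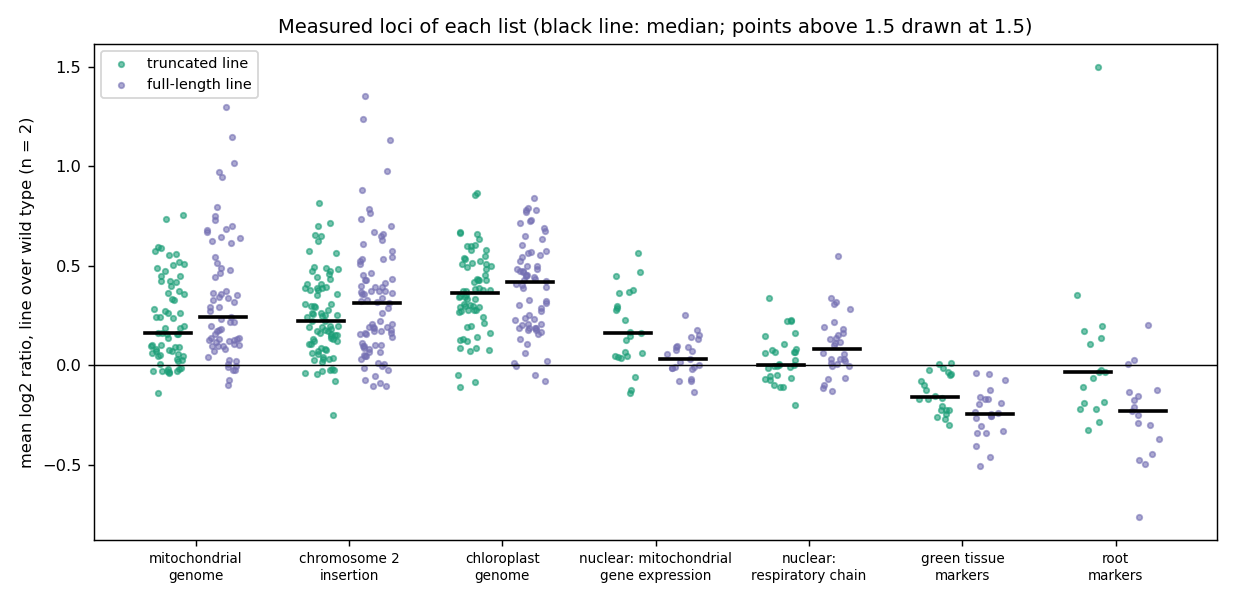
Mean log2 ratio of line over wild type (y axis, n = 2 arrays) for every measured locus of 7 lists (x axis), with the truncated line left of the full-length line in each list. Points are loci, black lines are medians, and 1 root marker, IRT1 in the truncated line, is drawn at the upper limit. The medians of the mitochondrial genome are 0.16 and 0.24, those of the chromosome 2 insertion 0.22 and 0.31, and those of the nuclear respiratory list 0.00 and 0.08.

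Markers of plant organs were set beside these values because organs differ in mitochondrial content. Of 22 green tissue genes, all well above background, 0 rose and 1 fell in the truncated line (PSAG, log2 ratios -0.24 and -0.30), and 0 rose and 5 fell in the full-length line. Their median was -0.16 in the truncated line and -0.24 in the full-length line, and under median centring it was -0.31 and -0.65. The median differed with dye orientation. On replicate 1, with the line in Cy3, it was -0.39 (truncated) and -0.47 (full-length). On replicate 2 it was near 0, at 0.03 and -0.04. The summed processed intensity of these genes was 2394986 and 2861027 in the truncated line against 3099821 and 2780225 in wild type, and 2191715 and 3389107 in the full-length line against 3047085 and 3546697 in wild type.

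Of 16 tested root genes, 2 rose and 0 fell in the truncated line (IRT1, the root iron transporter, and the root potassium channel gene SKOR), and 0 rose and 4 fell in the full-length line. Their median was -0.04 in the truncated and -0.23 in the full-length line, under median centring -0.06 and -0.31, and with the software's ratios -0.20 and -0.36. Summed over 17 measured root genes, of which NRT2:1 was not well above background, the intensity was 68046 and 65027 in the truncated line against 75678 and 77810 in wild type, and 77463 and 85314 in the full-length line against 72784 and 82873 in wild type. Of 7 measured pollen and flower genes, 4 (VGD1, VGDH1, PPME1 and AP3) were not well above background in any channel. The floral genes PI and SEP3 were the 2 tested: PI was called higher in the truncated line (0.87 and 0.85), and SEP3 was called lower in the truncated line (-0.91 and -0.74) and higher in the full-length line (0.47 and 0.54). The part of organ composition in the mitochondrial ratios was not tested.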

How the data were processed

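RNA of 2 lines and wild type was measured on 4 two-colour Agilent arrays, labelled from 200 ng of total RNA with the Low Input Quick Amp kit, per the labels' protocols. Such kits usually prime from poly(A) tails, which most plant mitochondrial transcripts lack or carry only briefly; the primer is not stated, and how fully these transcripts were labelled was not measured. Per the file headers, the authors read the scans with Feature Extraction 10.7.3.1 of Agilent. The deposited scanner files give median intensity and median local background per spot, processed intensity after background subtraction and dye normalization, and a log10 ratio of Cy5 over Cy3. The deposited table of processed values gives line over wild type on the log2 scale: set against the log10 ratios after the same turn and change of base, its columns had slopes of 0.998 to 1, and their medians were 0.04 and -0.07 (truncated) and 0.01 and -0.06 (full-length).

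Outlier-marked spots were left out, then background was corrected with normexp (offset 50), ratios were normalized by loess within arrays with control spots at weight 0, turned to line over wild type, and averaged per probe. A feature was tested if its transgenic channel was well above background on both arrays for 1 line, or its wild type channel on every one of the 4 arrays; 86 probes lacking a value on some array were dropped. limma 3.58.1 in R 4.3.3 (lmFit, eBayes, 2 residual and 3.18 prior degrees of freedom) fitted all 4 arrays together, with Benjamini-Hochberg adjustment over 22438 features and a threshold of 0.05. The fit was tried on simulated arrays with independent errors. In the data, deviations of arrays with the same replicate number correlated at 0.775, which that simulation did not cover. P-values cover no more than the spread between these arrays, in which dye effects are part.

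Members and lists were chosen with earlier results of these data known. Named loci are up to 10 of the largest rises and falls per comparison among called members with 1 sign on both arrays, members with probes of opposite direction, and up to 4 called genes of each other list. Role groups planned for the mitochondrial loci were not used, since no table here names those identifiers (0 of 67 matched). From the lists 43 nuclear loci were dropped, because the gene table (assembly TAIR10.1) gives neither a symbol nor the list's name for them. The drop did not look at their role. Of them, 36 were on the respiratory list, 4 on the mitochondrial gene expression list, 2 on the retrograde list and 1 on the pollen and flower list. The chromosome 2 copy is every measured locus between AT2G07660 and AT2G07680 in the order of that table, bounds chosen after the data were seen. Alternatives were the software's ratios, the deposited table, median centring, no filter, outlier spots kept, the mean of probes, the replicate block and leaving out each array.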

Additional observations from a re-analysis of the deposited data

Results flagged for a closer look

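The test of the difference itself was passed by ATMG01390, at -0.776 (truncated minus full-length, log2), and by ATMG01060, at -0.565. At 3 further loci both arrays of one line lay on one side of 0 and both arrays of the other line on the opposite side: ATMG00110 with a difference of 0.178, higher in the truncated line, and ATMG00140 with -0.0519 and ATMG00880 with -0.13, both lower in the truncated line. ATMG00110 had log2 ratios of 0.15 and 0.05 in the truncated line and -0.10 and -0.05 in the full-length line. ATMG00880 was too dim for the fit, so its difference was not tested, and ATMG00110 and ATMG00140 did not pass the test (adjusted p = 0.328 and 0.772). With 2 arrays per line no single array could be tested as an outlier.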

How the results depend on the processing

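No mitochondrial locus was called lower in either line under any alternative run. The median stayed above 0 in both lines and below 0 for the difference. Of 202 values of named loci under alternatives 155 kept their call, 47 lost it and 0 reversed. Many of these could not reverse: named loci had 1 sign on both arrays of a line, which fixes the sign when 1 is left out. With no filter and with the replicate block the means were the same by construction. The software's own log ratios and the deposited values both gave medians of 0.23 (truncated), 0.44 (full-length) and -0.14 (difference). With both, 0 loci were called lower in the truncated than in the full-length line. Median centring gave a median difference of -0.12 and 0 called loci in every comparison; the calls over all tested features fell as well, to 25 and 8 higher. Without a filter on dim probes 5 loci in the truncated line, 15 in the full-length one and 0 in the difference were called, among 34127 features tested. With outlier-marked spots kept the full-length median was 0.16 with 16 called, the median difference was -0.022 and 1 locus was called lower in the truncated line. The mean of all probes gave a median difference of -0.10. Leaving out 1 array of the line concerned gave medians of 0.19 to 0.20 (truncated), 0.24 to 0.29 (full-length) and -0.12 to -0.10 (difference), and 10 to 13, 17 to 22 and 1 to 2 called loci, with the lone array assumed to vary like the others. Leaving out an array of the other line raised the number called higher, among the mitochondrial loci and among all tested features as well. The lowest counts came without truncated replicate 2 (10) and without full-length replicate 2 (17), and the difference had 1 call without full-length replicate 1, truncated replicate 1 or truncated replicate 2. Causes of these shifts were not tested.

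With replicate number, which equals dye orientation, as a block, 38 loci of the truncated and 48 of the full-length line were called higher, and the difference had 2 higher and 18 lower. Over all tested features the block called 28.2% and 30.5% higher, and for the difference 17.9% higher and 21.2% lower. Deviations of arrays with the same number from their line's mean correlated at 0.775, but with 2 pairs the numbers are not taken to pair the arrays. A slide block was not run because all 4 arrays were on 1 slide.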
